A study of Mus musculus with 7 samples.

Results

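Potassium channels, transient receptor potential (TRP) channels and the proteins that let calcium into the cytoplasm were examined in cultured mouse lung endothelial cells (MLEC). The genes were taken by symbol from a table of 38472 genes, as every row named Kcn followed by letters and a number, Trpc, Trpv or Trpm with a number, Trpa1, Itpr1 to Itpr3, Orai1 to Orai3, Stim1, Stim2, Pkd1 or Pkd2. This gave 125 rows for 124 symbols, since *Kcnb2* was listed under 2 identifiers, and the rule reads symbols only. Of these rows, 93 are potassium channel genes with their accessory subunits and 32 are TRP, store-operated, IP3 receptor and polycystin genes.

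Poly(A) RNA was sequenced as single reads of 4 WT libraries (a, c, e, f) and 3 of AM EC-KO (b, d, g), all from mice of the C57BL/6 strain. In AM EC-KO mice the adrenomedullin gene *Adm* is floxed and Cre is driven by the promoter of *Cdh5*, the gene of VE-cadherin, so that deletion is directed to endothelium. The study calls its WT mice littermates, and the age of the mice and the loxP or Cre status of WT are not given in the sources used here. Cells were taken from the pooled lungs of 3 mice with PECAM-1 beads, cultured, sorted again with ICAM-2 beads and used as 3 to 4 isolates at passages 1 to 3. The study describes separate MLEC preparations behind its sequencing, but no label names the preparation of a library, so that p-values measure only the spread between libraries, which may in part be technical. Transcripts of *Adm* measured 48.2 (a), 70.1 (c), 76.1 (e) and 43.8 (f) FPKM in WT, against 9.31 (b), 17.2 (d) and 0.75 (g) FPKM in AM EC-KO, lower in every AM EC-KO library. FPKM divide the reads of a gene by the length of its transcript and by the total mapped, so that levels of different genes can be set side by side. From the steps between low values, 6.8 to 8.2 M mapped reads per library were estimated, at which 1 FPKM over a transcript of 3 kb corresponds to about 20.4 to 24.6 reads. Values of a gene are given below in the order a, c, e, f for WT and b, d, g for AM EC-KO.

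Endothelial cells are not electrically excitable in the manner of neurons, and calcium enters them mostly through channels that open on stretch, on lipid messengers or on emptying of the endoplasmic reticulum. When a receptor activates phospholipase C, IP3 opens IP3 receptors in the reticulum, STIM proteins sense the fall in stored calcium and ORAI channels then open in the plasma membrane. Potassium channels hold the membrane potential negative and so maintain the electrical force that drives calcium inward. In vascular endothelium, calcium entry and the opening of calcium-activated potassium channels are known as steps toward nitric oxide release and hyperpolarization.

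The endothelial markers that the study names were found in all 7 libraries, with *Pecam1* at 364 to 454 FPKM, *Cdh5* at 259 to 394 FPKM and *Icam2* at 105 to 138 FPKM. Other endothelial markers were less even. *Cldn5* ran from 12.4 to 80.0 FPKM, and *Vwf* was at 89.5 FPKM in WT e and 9.81 FPKM in WT f and listed at 0 elsewhere. WT e stood apart from the other libraries. The summed level of 12 fibroblast markers was 442 FPKM in WT e and 30.5 to 131 FPKM in the other 6, with the matrix proteoglycan gene *Dcn* at 227 FPKM against 2.83 to 8.47 FPKM. Of 9 tested fibroblast markers, 5 were highest in WT e. *Col3a1* (31.4 FPKM, against 18.4 FPKM in WT e) and *Mfap5* were highest in WT f, and *Fbln1* and *Postn* in AM EC-KO d. The summed level of 12 smooth muscle and pericyte markers was 574 FPKM in WT e, against 388 to 729 FPKM in the others, and that of 15 endothelial markers was 3721 FPKM against 3464 to 4203 FPKM. None of the fibroblast markers was listed at 0 in all libraries.

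The channels of these cells were mainly those of calcium entry and release. In all, 27 of the 125 rows had a mean of at least 1 FPKM over the 7 libraries, 19 lay between 0.1 and 1 FPKM, 41 were above 0 but under 0.1 FPKM, and 38 were listed at 0 in every library. Among genes annotated as protein-coding, 21.8% of 124 channel genes reached 1 FPKM, against 51.4% of 21098 genes of the table. The families differed in this share. All 5 store-operated entry genes, all 3 IP3 receptor genes and both polycystin genes were at 1 FPKM or more, together with 3 of 8 melastatin (Trpm), 2 of 6 vanilloid (Trpv) and 2 of 7 canonical (Trpc) TRP genes. Of the potassium channel genes, 10 of 93 (10.8%) were at 1 FPKM or more, namely 4 of 41 voltage-gated (Kv), 2 of 15 inward rectifier (Kir), 1 of 14 K2P leak, 1 of 8 calcium- or sodium-activated and 2 of 15 accessory subunit genes. In summed FPKM of all channel genes, store-operated entry made up 33.3 to 45.1% per library and IP3 receptors 12.9 to 16.7%. Polycystins made up 10.8 to 19.2% and all potassium channel genes together 14.9 to 24.9%. *Orai1* was listed at 0 in WT a, WT f and AM EC-KO g. These zeros can be failed estimates, so the store-operated share of those libraries may be understated. The counts and shares take listed zeros as 0. *Kcne4*, *Trpc2* and *Kcnj15* are thus counted under 1 FPKM, although the authors' pooled value of at least 1 genotype was above 1 FPKM for each. In bulk RNA, fewer cells of a type and less RNA per cell cannot be told apart, and these levels are means over the culture.

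**Figure D1:**
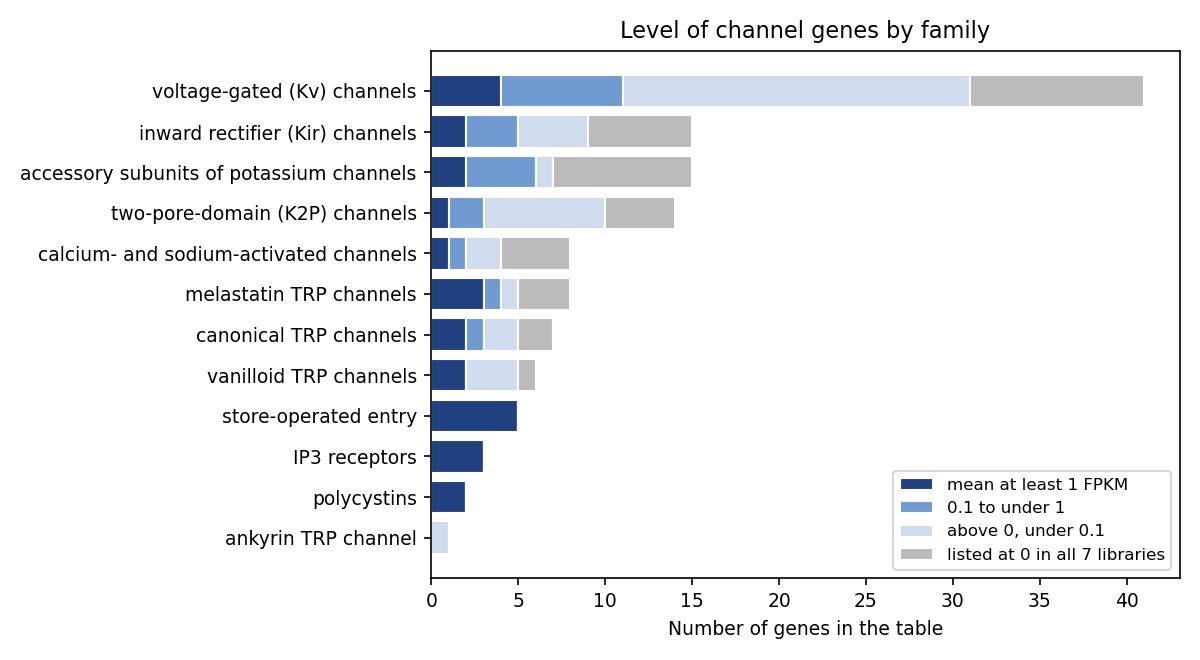
Number of channel genes per family (horizontal axis), with bar sections for the mean FPKM over 7 libraries. The 5 store-operated, 3 IP3 receptor and 2 polycystin genes were all at 1 FPKM or more, while 4 of 41 voltage-gated potassium channel genes were.

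A match by symbol to RefSeq gave the promoter sequence (build GRCm38.p6) of 95 channel genes. For each, the RefSeq start nearest to the annotated gene start was used. For *Kcnh2* the window (chr5:24329592-24329841, minus strand), with 14 CG, lies inside the gene, whose annotated start is at 24351604. *Itpr1*, *Trpm4*, *Kcnk6* and *Kcnq1*, also at 1 FPKM or more, had no window. In the 250 bases before the start site, the number of CG dinucleotides (letters CG, the same on both strands) had a median of 17 for the 15 TRP, store-operated, IP3 receptor and polycystin genes at 1 FPKM or more, as for the 7906 protein-coding genes at that level. It was 6 for the 8 potassium channel genes at 1 FPKM or more and 6 for the 29 channel genes listed at 0 in all libraries. At least 10 CG were found in 73.3% of those 15 genes and in 37.5% of those 8, against 78.0% of the 7906 protein-coding genes at that level and 53.6% of all 14794 protein-coding promoters. Among potassium channel genes listed at 0 in all libraries the share was also 37.5%, and among the 35 above 0 and under 1 FPKM it was 54.3%. Below are the windows of *Stim2* and *Itpr3*, which varied least between the libraries among the channel genes at 1 FPKM or more, and of *Kcne3* and *Kcnf1*, which had the highest levels of the potassium channel genes. Each reads 5′ to 3′ on the strand of the gene, with every CG in capitals.
Stim2: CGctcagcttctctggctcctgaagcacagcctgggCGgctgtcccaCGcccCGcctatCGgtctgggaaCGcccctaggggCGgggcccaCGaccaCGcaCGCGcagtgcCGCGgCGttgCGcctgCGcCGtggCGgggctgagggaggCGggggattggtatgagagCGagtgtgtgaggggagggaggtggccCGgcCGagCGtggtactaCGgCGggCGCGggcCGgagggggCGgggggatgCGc
Itpr3: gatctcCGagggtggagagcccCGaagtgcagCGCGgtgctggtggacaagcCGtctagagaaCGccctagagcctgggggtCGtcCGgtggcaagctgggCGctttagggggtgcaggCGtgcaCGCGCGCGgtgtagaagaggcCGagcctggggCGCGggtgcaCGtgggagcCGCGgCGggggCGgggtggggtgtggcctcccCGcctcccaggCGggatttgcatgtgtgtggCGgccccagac
Kcne3: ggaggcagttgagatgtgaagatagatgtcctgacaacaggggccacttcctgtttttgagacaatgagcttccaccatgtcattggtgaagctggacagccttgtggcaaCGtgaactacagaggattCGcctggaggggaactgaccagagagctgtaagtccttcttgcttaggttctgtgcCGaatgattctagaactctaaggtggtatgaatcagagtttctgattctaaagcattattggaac
Kcnf1: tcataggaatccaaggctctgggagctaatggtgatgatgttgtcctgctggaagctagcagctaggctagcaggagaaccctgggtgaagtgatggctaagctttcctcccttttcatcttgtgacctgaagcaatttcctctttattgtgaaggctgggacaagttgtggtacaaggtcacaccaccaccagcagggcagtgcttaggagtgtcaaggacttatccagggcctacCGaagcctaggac
The *Stim2* window (chr5:53998273-53998522, plus strand) held 30 CG and that of *Itpr3* (chr17:27057054-27057303, plus strand) 25. The *Kcne3* window (chr7:100176420-100176669, plus strand), taken at 1 of several RefSeq starts of the gene, held 3 and that of *Kcnf1* (chr12:17176889-17177138, minus strand) held 1. Windows not shown went the other way at 1 FPKM or more, with 35 CG for *Kcnj4* and 18 for *Kcnd3*, and 4 for *Pkd2* and 2 for *Trpv2*. These counts describe the letters of the windows, and methylation or factor binding was not measured.

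Of the store-operated entry genes, the reticulum calcium sensors came first. *Stim2* (ENSMUSG00000039156), which responds to small falls of stored calcium, was at 25.2, 25.9, 23.4 and 23.0 FPKM in WT and 25.5, 23.3 and 22.7 FPKM in AM EC-KO. It was the highest of all channel genes by mean and the steadiest, with a coefficient of variation (CV, SD over mean across the 7 libraries) of 5.57%. *Stim1* (ENSMUSG00000030987), the sensor that acts when stores are more fully emptied, was at 27.9, 23.2, 10.8 and 26.5 FPKM in WT and 27.1, 21.9 and 25.4 FPKM in AM EC-KO. It was low in WT e, at 10.8 FPKM against 21.9 to 27.9 FPKM in the other 6 libraries, while *Stim2* was not. The pore-forming *Orai2* was at 26.1, 25.5, 16.0 and 19.8 FPKM in WT and 23.8, 22.7 and 20.5 FPKM in AM EC-KO, again lowest in WT e. *Orai3* was at 10.5, 13.0, 16.3 and 11.4 FPKM in WT and 11.4, 10.8 and 11.4 FPKM in AM EC-KO and highest in WT e. *Orai1*, the main pore of store-operated entry in many cell types, was at 0, 25.1, 22.6 and 0 FPKM in WT and 17.3, 26.8 and 0 FPKM in AM EC-KO. The library values of *Orai1* fell into 2 sets, 4 at 17.3 to 26.8 FPKM and 3 at exactly 0, with zeros in both genotypes. The authors' group values were 25.4 FPKM for WT and 26.6 FPKM for AM EC-KO, and no mean ± SD is given for this gene. Exact zeros of this kind were not particular to *Orai1*. Of 15604 tested genes, 765 (4.90%) were listed at 0 in a library although the median of the other libraries was at least 5 FPKM, and *Gnas*, a gene of general use that codes for a G protein subunit, was listed at 0 in all 7.

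The 3 IP3 receptor genes, which code for the calcium release channels of the reticulum, were present in a fixed order in every library, *Itpr3* above *Itpr1* above *Itpr2*. *Itpr3* (ENSMUSG00000042644) was at 22.4, 22.2, 21.6 and 24.97 FPKM in WT and 22.4, 19.7 and 23.1 FPKM in AM EC-KO, with a CV of 7.10%. *Itpr1* was at 8.81, 9.80, 10.5 and 10.4 FPKM in WT and 8.64, 8.53 and 8.78 FPKM in AM EC-KO, with all 3 AM EC-KO libraries just below the lowest WT library. *Itpr2* was at 4.21, 4.14, 3.46 and 5.17 FPKM in WT and 4.05, 3.88 and 4.35 FPKM in AM EC-KO. Together the 3 genes summed to 32.1 to 40.5 FPKM per library, a narrow range beside that of all potassium channel genes, 32.5 to 67.5 FPKM. The exons of *Itpr3* share 233 bases with the antisense gene *Itpr3os*, and whether counting used the strand is not stated.

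The polycystins, known from polycystic kidney disease and as parts of the primary cilium, were both well expressed. *Pkd1*, the large receptor-like member, was at 13.3, 15.8, 16.6 and 16.9 FPKM in WT and 13.4, 14.9 and 15.6 FPKM in AM EC-KO, with a CV of 9.38%. Its exons share 693 bases with *Tsc2* on the opposite strand. *Pkd2*, the channel subunit, was at 13.6, 13.4, 32.4 and 21.8 FPKM in WT and 13.5, 16.9 and 17.0 FPKM in AM EC-KO, which is highest in WT e. In WT e *Pkd2* lay far above *Pkd1*, while in WT a and AM EC-KO b both were close to each other and in WT c *Pkd2* was the lower.

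Of the TRP genes, the melastatin member *Trpm7*, a magnesium- and calcium-permeable channel fused to a kinase, was highest. It was at 10.98, 8.88, 14.7 and 13.6 FPKM in WT and 11.2, 11.8 and 12.5 FPKM in AM EC-KO. *Trpm4*, a channel opened by calcium that passes sodium and potassium but not calcium, was at 2.53, 2.12, 3.36 and 2.59 FPKM in WT and 2.18, 1.86 and 2.25 FPKM in AM EC-KO. *Trpm5*, its close relative known from taste cells, was at 5.53, 0, 2.88 and 2.61 FPKM in WT and 0, 3.49 and 0 FPKM in AM EC-KO. *Trpm5* was listed at 0 in 1 WT and 2 AM EC-KO libraries, and its exons share 220 bases with *Tssc4* on the opposite strand. The authors' group values of *Trpm5* were 4.01 FPKM for WT and 4.97 FPKM for AM EC-KO, the latter above every AM EC-KO library. Its listed zeros are therefore not read as absence. *Trpm2*, opened by oxidative stress, did not exceed 0.0685 FPKM in any library.

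Among the vanilloid TRP genes, *Trpv4*, which responds to shear stress, swelling and lipid messengers in endothelium, was at 10.03, 6.78, 0 and 11.4 FPKM in WT and 8.99, 5.01 and 11.8 FPKM in AM EC-KO. The 6 libraries other than WT e were at 5.01 to 11.8 FPKM and WT e was listed at 0. *Trpv2* was at 2.41, 4.58, 2.27 and 7.06 FPKM in WT and 3.34, 4.52 and 6.64 FPKM in AM EC-KO, with both genotypes spread over the same range. The other 4 Trpv genes were all under 0.1 FPKM by mean. Of the canonical TRP genes, which open downstream of phospholipase C, *Trpc1* was at 1.54, 1.35, 0.598 and 1.23 FPKM in WT and 1.33, 1.06 and 1.44 FPKM in AM EC-KO. *Trpc6*, opened by diacylglycerol and known in smooth muscle and in lung endothelium, was at 0.656, 1.08, 3.98 and 0.535 FPKM in WT and 1.75, 1.62 and 0.919 FPKM in AM EC-KO. WT e had the highest *Trpc6* value and the lowest *Trpc1* value. *Trpc4* did not exceed 0.222 FPKM. *Trpc2* was at 4.34 FPKM in WT f and listed at 0 in the other 6, in a gene that overlaps another on the same strand, and it is named for this pattern after its values were seen. The authors' group values of *Trpc2* were 5.06 FPKM for WT and 4.05 FPKM for AM EC-KO, so its listed zeros are not read as absence.

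The mechanically opened PIEZO channels stand in the table under older symbols and were therefore outside the symbol rule. *Piezo2*, listed as *Fam38b*, was at 2.06, 4.48, 12.4 and 3.61 FPKM in WT, against 2.56, 3.23 and 3.77 FPKM in AM EC-KO, highest in WT e. *Piezo1*, listed as *Fam38a*, had no library values and was not analysed here.

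**Figure D2:**
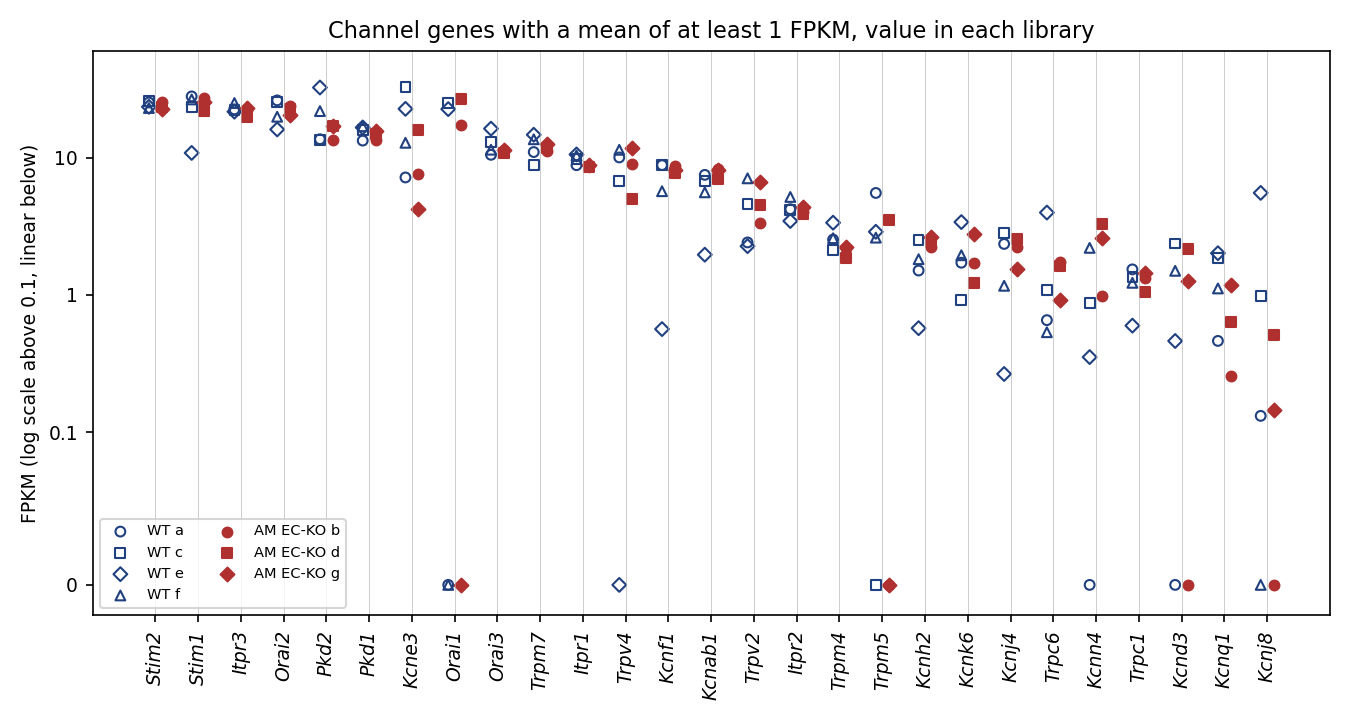
FPKM of the 27 channel genes that averaged 1 FPKM or more (vertical axis, log scale above 0.1 and linear below, zeros at the bottom), ordered by mean, with 1 mark per library (open, WT; filled, AM EC-KO). Marks of *Stim2*, *Itpr3* and *Pkd1* sit close together, those of *Kcne3*, *Trpc6* and *Kcnj8* are spread widely, and *Orai1* is at 0 in 3 libraries.

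The potassium channel gene with the highest mean was not a pore but an accessory subunit. *Kcne3* (ENSMUSG00000035165), a single-span protein that binds Kv pores such as that of *Kcnq1*, was at 7.17, 32.7, 22.7 and 12.8 FPKM in WT and 7.54, 16.0 and 4.20 FPKM in AM EC-KO. Its range of 4.20 to 32.7 FPKM gave a CV of 68.5%, above that of 97.6% of all genes at 1 FPKM or more with no zero. *Kcnq1*, the pore gene known to work with it in epithelium, was at 0.463, 1.87, 2.01 and 1.12 FPKM in WT and 0.256, 0.630 and 1.19 FPKM in AM EC-KO. The exons of *Kcnq1* share 121 bases with the antisense RNA gene *Kcnq1ot1*. *Kcnab1*, a cytoplasmic beta subunit of Kv channels, was at 7.49, 6.72, 1.96 and 5.59 FPKM in WT and 8.33, 7.04 and 8.15 FPKM in AM EC-KO and was lowest in WT e.

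Of the Kv pores, *Kcnf1* (ENSMUSG00000051726) was highest. It codes for an electrically silent subunit, which forms no channel of its own and modifies other Kv pores. It was at 8.82, 8.81, 0.564 and 5.69 FPKM in WT and 8.75, 7.75 and 8.06 FPKM in AM EC-KO, that is 5.69 to 8.82 FPKM in 6 libraries and 0.564 FPKM in WT e. *Kcnh2*, the ERG channel known from the heart, was at 1.51, 2.52, 0.573 and 1.82 FPKM in WT and 2.22, 2.41 and 2.65 FPKM in AM EC-KO. *Kcnd3*, an A-type channel gene, was at 0, 2.37, 0.462 and 1.499 FPKM in WT and 0, 2.15 and 1.26 FPKM in AM EC-KO, with 1 zero in each genotype. Its group values were 1.72 FPKM for WT and 2.04 FPKM for AM EC-KO, beside library means of 1.08 and 1.14 FPKM. These zeros are not read as absence.

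The channels best known in endothelium were uneven. *Kcnn4*, the intermediate-conductance calcium-activated channel of endothelial hyperpolarization, was at 0, 0.876, 0.353 and 2.20 FPKM in WT and 0.989, 3.26 and 2.60 FPKM in AM EC-KO. Its small-conductance relative *Kcnn3* was at 0.238, 0.697, 0 and 0.235 FPKM in WT and 0.383, 0.315 and 0.593 FPKM in AM EC-KO, under 1 FPKM throughout. *Kcnj2*, the Kir2.1 inward rectifier often named as the resting conductance of endothelium, was at 0.0250, 0, 0.420 and 0.770 FPKM in WT and 0, 0.121 and 0.110 FPKM in AM EC-KO. *Kcnj4*, another member of the Kir2 group, was higher in 6 of 7 libraries, at 2.35, 2.84, 0.266 and 1.17 FPKM in WT and 2.23, 2.55 and 1.56 FPKM in AM EC-KO. In WT e the order was turned, with *Kcnj4* at 0.266 FPKM and *Kcnj2* at 0.420 FPKM. *Kcnj8*, the pore of ATP-sensitive channels and a marker of pericytes, was at 0.132, 0.988, 5.53 and 0 FPKM in WT and 0, 0.513 and 0.145 FPKM in AM EC-KO. It was highest in WT e, at 5.53 FPKM against listed values of at most 0.988 FPKM elsewhere. The authors' group values of *Kcnj8* were 2.46 FPKM for WT and 0.369 FPKM for AM EC-KO, beside library means of 1.66 and 0.219 FPKM. Its listed zeros are not read as absence. *Kcnk6*, a K2P channel gene, was at 1.72, 0.915, 3.39 and 1.95 FPKM in WT and 1.71, 1.21 and 2.79 FPKM in AM EC-KO. *Kcnk3*, an acid-sensitive K2P channel, was at 0.0350 FPKM in WT f and listed at 0 in the others, while *Kcnk2* and the large-conductance channel gene *Kcnma1* were listed at 0 in all 7 libraries and in both group values.

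A zero in every library was not always a zero in the authors' group values. Of the 38 rows listed at 0 in all libraries, 10 had a group value above 0, among them *Kcnj15* at 1.43 FPKM for AM EC-KO and *Kcnab2* at 0.414 FPKM for WT and 0.720 FPKM for AM EC-KO, both named after their values were seen. The count of 38 is therefore of rows listed at 0, not of genes shown to be off.

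Among channel genes with no listed zero, much of the variation between libraries lay in WT e. Of 21 channel genes at 1 FPKM or more with no zero, WT e held the highest value of 8 and the lowest of 9, so that 17 (81.0%) had an extreme there. Over 11011 genes of the table at that level, WT e held 33.0% of the highest and 27.4% of the lowest values, 60.5% together, and each other library held 19.9 to 28.2%. Highest in WT e were *Pkd2*, *Orai3*, *Trpm7*, *Itpr1*, *Trpm4*, *Kcnk6*, *Trpc6* and *Kcnq1*. Lowest in WT e were *Stim1*, *Orai2*, *Kcnf1*, *Kcnab1*, *Trpv2*, *Itpr2*, *Kcnh2*, *Kcnj4* and *Trpc1*. Below 1 FPKM by mean, and named after their values were seen, *Kcne4* was at 3.95 FPKM in WT e against at most 0.901 FPKM elsewhere, and *Kcnk10* was at 1.78 FPKM against at most 0.382 FPKM. *Kcne4* was listed at 0 in 4 libraries, while its group values were 2.64 FPKM for WT and 1.06 FPKM for AM EC-KO. The AM EC-KO group value lies above every AM EC-KO library, so these zeros are not read as absence. *Kcnk5* was at 1.64 FPKM in WT e against 0.137 to 0.518 FPKM, and *Kcnc2* at 1.86 FPKM against 0.382 to 1.08 FPKM. *Kcnd2* was low in WT e, at 0.0261 FPKM against 0.331 to 1.31 FPKM.

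The fibroblast marker sum of WT e was 442 FPKM against 30.5 to 131 FPKM, with 5 of 9 tested fibroblast markers highest there. Of 12 tested smooth muscle and pericyte markers 7 were highest and 2 lowest in WT e. The most abundant of these 12, *Tagln*, was lowest in WT e, at 190 FPKM against 247 to 446 FPKM. The endothelial sum of WT e lay inside the range of the others, while 7 of 14 tested endothelial markers were highest there and 2 lowest. *Emcn* was at 571 FPKM in WT e against 1211 to 1337 FPKM, and *Tek* at 44.5 FPKM against 12.1 to 20.6 FPKM. The sum of lung epithelium markers was also highest in WT e, at 25.5 FPKM against 14.0 to 19.7 FPKM. Of these, *Sftpc* was at 10.3 FPKM in WT e and listed at 0 elsewhere, while *Krt18* was lowest there. The sums of myeloid markers (114 FPKM against 51.5 to 247 FPKM) and lymphatic markers (267 FPKM against 152 to 293 FPKM) in WT e lay inside the range of the others. The part of these markers in the channel levels was not tested. Without WT e, 25 channel genes had a mean of at least 1 FPKM.

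**Figure D3:**
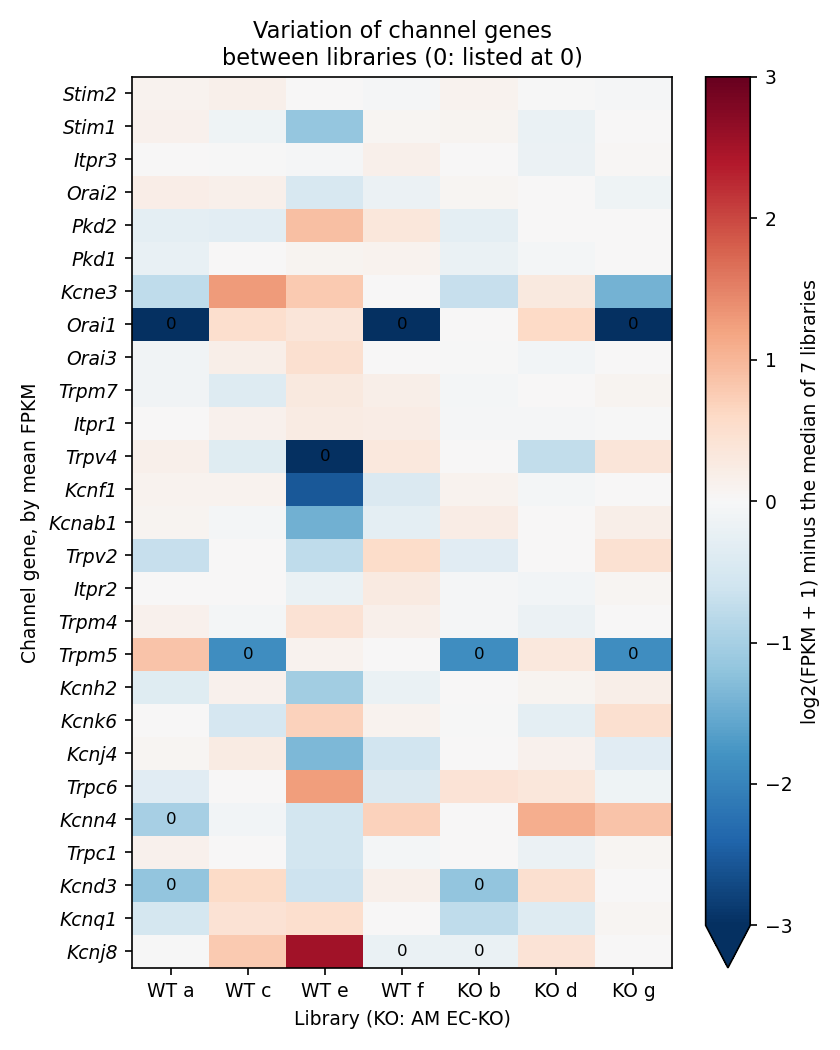
Each cell is log2(FPKM + 1) of a channel gene in a library minus its median over the 7 libraries (colour, clipped at -3), with genes in rows by mean level, libraries in columns and 0 for values listed at 0. The WT e column is low for *Kcnf1*, *Kcnab1* and *Stim1* and high for *Kcnj8*, *Trpc6* and *Pkd2*. Strong colours outside it include the listed zeros of *Orai1* and *Trpm5* and *Kcne3* in WT c and AM EC-KO g.

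The comparison of AM EC-KO with WT asked whether loss of endothelial *Adm* went with other channel levels. No channel gene passed the test. Of 44 channel genes tested with limma on log2(FPKM + 1), 0 passed FDR 0.1, against 0.0641% of 15604 genes tested (10 genes), and 0 had an unadjusted p under 0.05, against 3.07% (479 genes). Fold changes were above 0 for 20 and below 0 for 24, with a median log2 fold change of -0.02 beside -0.01 over all tested genes. The genotypes did not overlap for 1 of the 44, *Itpr1*, against 5.13% of all tested genes, so the channel genes did not exceed the background. *Itpr1* was 9.88 ± 0.78 FPKM (SD, n = 4) in WT and 8.65 ± 0.12 FPKM (SD, n = 3) in AM EC-KO. Its log2 fold change was -0.17 (SE 0.11), with p = 0.057 when all 35 assignments of libraries were permuted (exact permutation, two-sided), where 0.029 is the smallest p possible, and an adjusted p of 0.954 in limma with Benjamini-Hochberg adjustment.

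The difference with the smallest limma p was that of *Kcnn4*. WT ran from a listed 0 (WT a) to 2.20 FPKM (WT f). AM EC-KO ran from 0.989 FPKM (AM EC-KO b) to 3.26 FPKM, so the genotypes overlapped. The authors' group values were 1.26 FPKM for WT and 2.51 FPKM for AM EC-KO, beside library means of 0.858 and 2.28 FPKM. The listed 0 of WT a is therefore not read as absence. The log2 fold change of *Kcnn4* was 0.89 (SE 0.45), with an exact permutation p of 0.11 and a limma adjusted p of 0.954. Leaving out WT f gave 1.20 and leaving out AM EC-KO b gave 1.21, each without overlap and at an unadjusted p under 0.05, and neither passed FDR 0.1. Any other library left out gave a log2 fold change of *Kcnn4* from 0.64 (without WT a, its listed 0) to 0.94 (without WT c). *Kcnh2* had a log2 fold change of 0.45 (SE 0.28), and its WT mean was 1.60 FPKM with WT e and 1.95 FPKM without it, against 2.43 FPKM in AM EC-KO, and its log2 fold change was 0.23 without WT e. *Kcne3* had the largest difference downward, -0.93 (SE 0.58), and *Kcnq1* had -0.46 (SE 0.31). Leaving out WT a gave -1.29 for *Kcne3* and -0.68 for *Kcnq1*, both at an unadjusted p under 0.05, and neither passed FDR 0.1. The smallest differences with a library left out were -0.52 for *Kcne3* (without AM EC-KO g) and -0.27 for *Kcnq1* (without AM EC-KO b). *Kcnab1* had a log2 fold change of 0.56 (SE 0.37), and its WT mean was 5.44 FPKM with WT e and 6.60 FPKM without it, against 7.84 FPKM in AM EC-KO, with a log2 fold change of 0.22 without WT e.

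The precision differed widely between genes, and absence of a call is not evidence of equal levels. Of the 27 genes at 1 FPKM or more, the 95% interval of the log2 fold change lay within ±0.5 for 7 and within ±1 for 13. For *Stim2* the interval ran from -0.23 to 0.17 and for *Itpr3* from -0.29 to 0.15. For *Kcne3* it ran from -2.30 to 0.44, and for *Orai1*, with its 3 zeros, from -3.42 to 4.78.

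**Figure D4:**
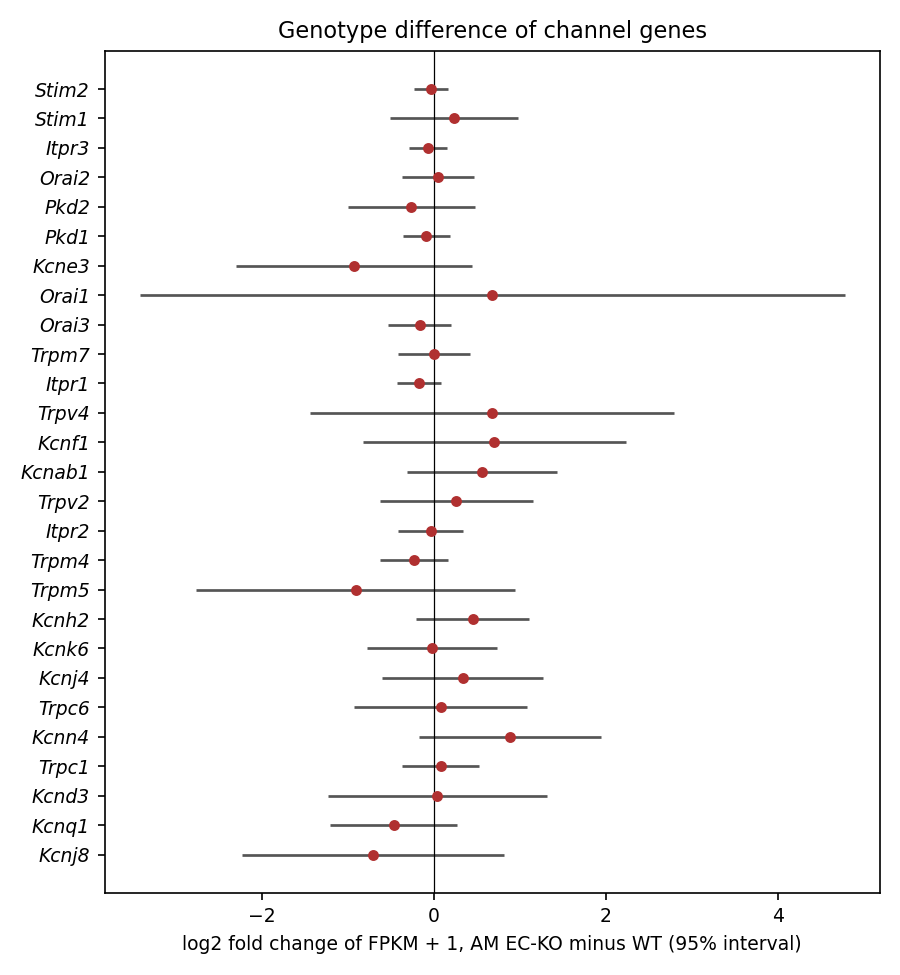
Log2 fold change of FPKM + 1, AM EC-KO minus WT (horizontal axis), for the 27 channel genes at a mean of at least 1 FPKM, in order of level. Points are limma estimates and bars 95% intervals, all of which include 0.

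Genes that work with these channels were tested in the same fit. Of 42 calcium handling genes (pumps, exchangers, store-operated regulators and mitochondrial uptake), 41 had library values and 24 were tested, 0 passed FDR 0.1 and 2 had an unadjusted p under 0.05, *Saraf* upward and *Atp2c1* downward, beside 3.07% of all tested genes, with a median log2 fold change of -0.01. Among the highest of them by mean were *Saraf* (listed as *Tmem66*), an inhibitor of STIM proteins, the reticulum pump *Atp2a2*, *Cracr2b* (listed as *Efcab4a*) and *Plcg1*, a phospholipase C. *Saraf* was at 74.4, 65.9, 52.4 and 75.1 FPKM in WT, against 81.5, 78.6 and 99.6 FPKM in AM EC-KO, higher in every AM EC-KO library. Its log2 fold change was 0.37 (SE 0.15), with a limma adjusted p of 0.954. *Atp2c1*, the Golgi calcium pump gene, was at 25.5, 32.2, 39.4 and 0 FPKM in WT with every AM EC-KO library listed at 0, while the authors' group value was 33.0 FPKM for WT and 26.7 FPKM for AM EC-KO. Its unadjusted p therefore rests on these listed zeros. Of 26 genes of sodium-potassium pumps, chloride channels and related conductances, 10 were tested, 0 passed FDR 0.1 and 1, *Hcn2*, had an unadjusted p under 0.05, again beside 3.07% of all tested genes. *Hcn2*, a cation channel gene known from pacemaker cells, was at 0.179, 0, 0 and 0 FPKM in WT, against 1.04, 0.524 and 0.501 FPKM in AM EC-KO, a log2 fold change of 0.68 (SE 0.14) with a limma adjusted p of 0.954. The authors' group values of *Hcn2* were 0.469 FPKM for WT, above every WT library, and 0.787 FPKM for AM EC-KO. Its unadjusted p therefore rests in part on zeros that are not read as absence. *Atp1b1*, a beta subunit of the sodium-potassium pump, had 7.40 FPKM in WT e, against 32.0 to 80.8 FPKM elsewhere. *Ano1*, a calcium-activated chloride channel, was listed at 0 in WT c and e and was at 43.9 to 61.0 FPKM in the other 5. Its group values were 40.4 FPKM for WT and 60.3 FPKM for AM EC-KO, so these zeros are not read as absence.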

How the data were processed

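Sequencing of MLEC RNA was analysed from 4 WT and 3 AM EC-KO libraries, grouped by their labels. The authors trimmed reads with Cutadapt, mapped them to GRCm38 with TopHat2 2.0.6 and deposited a gene table of FPKM with a column per library and a pooled column per genotype, and the processing notes also name Cufflinks and Cuffdiff. Its fold changes, p-values, q-values and splicing columns hold the authors' own comparisons and were not used. Read counts are not used here, so no count model was fitted, and 172 genes without library values were left out.

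Genes that averaged 0.1 FPKM or more and were above 0 in at least 3 libraries were tested on log2(FPKM + 1), with a pseudocount of 1 FPKM, by limma 3.58.1 with a trend (R 4.3.3) across all genes, with Benjamini-Hochberg adjustment at 0.1. Fold changes are on the log2(FPKM + 1) scale, which understates the change of low genes. The exact two-sided permutation test used all 35 assignments of the 7 libraries. Python 3.11.15, pandas 2.3.3, scipy 1.17.1 and matplotlib 3.10.9 were used for tables and figures, and the code was tested on simulated data. Depth was estimated from transcripts of over 1500 bp for fragments of 200 bp, where 69.7 to 76.5% of the low values came to a whole number of reads within a tolerance of 0.1 read (chance gives 20%).

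Named with values in every library were channel genes that averaged 1 FPKM or more, tested genes whose genotypes did not overlap or whose unadjusted p was under 0.05, and a list of channels known in endothelium. Of partner genes the highest by mean and those at an unadjusted p under 0.05 were named. Some genes that this rule names are not reported here. The channel genes, gene lists and tests were chosen with earlier results of these data known. Genes were annotated by identifier in GENCODE M21 (GRCm38), which matched 124 channel rows. Alternatives were other pseudocounts, filters and scalings, TPM, limma settings and each library left out in turn. A planned description of pore sequences was not run, since protein sequences were not used here.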

Additional observations from a re-analysis of the deposited data

Results flagged for a closer look

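Of the 27 channel genes at a mean of at least 1 FPKM, 1 had a WT library that stood apart from the other 3 by Dixon's criterion for 4 samples. *Trpc6* was at 3.98 FPKM in WT e, against 0.535 to 1.08 FPKM in WT a, c and f and 0.919 to 1.75 FPKM in AM EC-KO. Chance alone marks about 1 in 20 such groups. The group of 3 AM EC-KO libraries is too small for this criterion. The fibroblast marker sum was also highest in WT e, at 442 FPKM against 30.5 to 131 FPKM, and its part in the *Trpc6* value was not tested.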

How the results depend on the processing

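At FDR 0.1, 0 channel genes passed under the main setting and under all 18 alternatives, and limma adjusted p for the 6 genes followed lay between 0.852 and 1.00. The count at an unadjusted p under 0.05 was 0 under every setting that kept all libraries and 0 to 2 with a library left out, at 2 without WT a (*Kcne3* and *Kcnq1*, both lower in AM EC-KO) and at 1 without WT f or without AM EC-KO b (*Kcnn4*). Genes without overlap between genotypes numbered 1, or 2 with quantile normalization and 1 to 4 with a library left out. The 27 genes at a mean of at least 1 FPKM became 14 when 1 FPKM was required in every library, and 18 to 33 with a threshold of 2 or 0.5 FPKM or 1 TPM. No followed gene changed direction, with log2 fold changes of -0.22 to -0.13 for *Itpr1*, 0.64 to 2.82 for *Kcnn4*, -1.38 to -0.52 for *Kcne3*, 0.22 to 0.73 for *Kcnab1*, 0.23 to 0.77 for *Kcnh2* and -1.02 to -0.27 for *Kcnq1*. The lowest values of *Kcnab1* and *Kcnh2* came without WT e, and *Kcnq1* was at -0.27 without AM EC-KO b. Over all genes, calls at FDR 0.1 ranged from 0 for genes above 0 in every library to 39 without WT a. No paired analysis was possible because the labels give the genotypes no shared replicate number. With 7 libraries and exact zeros that can be failed estimates, low genes and genes such as *Orai1* were measured least precisely.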

Other observations

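Across the 21 channel genes at 1 FPKM or more with no zero, the profile of log2(FPKM + 1) of WT e had Pearson correlations with the other libraries of 0.73 to 0.83, with a median of 0.76, while the medians of the other 6 libraries were 0.92 to 0.96. These correlations are across genes of a single family of measurements, and genes are not independent replicates. WT a was most like AM EC-KO b, at 0.988, and WT c was most like AM EC-KO d, at 0.971, while AM EC-KO d was slightly closer to AM EC-KO b than to WT c. The neuronal gene *Stmn2*, on no channel list, had 5.77 FPKM in WT e, against 114 to 186 FPKM in the remaining 6. It is 1 of 7 neuron markers examined, of which 3 were tested. *Nefl* was also lowest in WT e, while *Snap25* was highest there, at 0.943 FPKM against at most 0.0665 FPKM. Of the markers not tested, 3 were listed at 0 in all libraries.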
